A study of Mus musculus with 6 samples.

Results

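Genes that carry cells from G1 into S phase and copy their DNA were followed in lineage-depleted bone marrow. The 28 members were chosen by name, as genes of replication licensing, nucleotide supply and the E2F program. All 28 had a row among the 24421 genes of the count table, and all 28 passed the filter on low counts that left 13803 genes to test. By role they were the MCM helicase subunits (Mcm2, Mcm3, Mcm4, Mcm5, Mcm6, Mcm7), the loading factors Cdc6 and Cdt1, the firing factors Cdc45 and Gins2, synthesis at the fork (Pcna, Pola1, Prim1, Fen1, Dscc1), nucleotide supply and uracil removal (Rrm1, Rrm2, Tyms, Ung), chromatin and histone supply (Slbp, Uhrf1, Hells, Chaf1b) and G1/S control (Ccne1, Ccne2, E2f1, E2f2, E2f8).

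Cells had been treated with DEK, a chromatin-binding nuclear protein that was supplied from outside, or with vehicle. There were 3 libraries in each group, numbered 1 to 3. Both groups were C57BL/6 bone marrow of genotype Dek -/-, flushed from the femur and passed over columns that remove lineage-marked cells, so both carried the knockout. The series title gives the question, namely how treatment of such marrow with DEK changes its transcripts. The labels used here give no dose, duration, age or number of animals, nor whether libraries came from separate animals, so the p-values measure only the spread between these libraries.

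Before S phase, the origin recognition complex, Cdc6 and Cdt1 load the MCM helicase onto DNA in G1, and the helicase starts to unwind only when Cdc45 and the GINS complex join it. E2F transcription factors, released from the retinoblastoma protein as cyclin-dependent kinases become active, switch on most of the genes that replication needs. In marrow these genes are used by the dividing progenitors and are low in resting stem cells and in mature granulocytes.

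Promoters of Mcm2, Mcm3, Mcm5, Mcm6, E2f2 and Uhrf1 are shown because all 6 MCM genes were higher with DEK in pair 2 of the libraries, E2f2 had its widest difference in another pair, and Uhrf1 had the widest difference within a pair. Each line gives 190 bases before a RefSeq start, 5′ to 3′ on the gene's strand, on GRCm38.p6, with E2F words and CCAAT boxes in capitals. The windows are chr6:88898781-88898970 on the minus strand for Mcm2, chr1:20820313-20820502 on the minus strand for Mcm3, chr8:75109319-75109508 on the plus strand for Mcm5, chr1:128359706-128359895 on the minus strand for Mcm6, chr4:136172084-136172273 on the plus strand for E2f2 and chr17:56304123-56304312 on the plus strand for Uhrf1.
Mcm2: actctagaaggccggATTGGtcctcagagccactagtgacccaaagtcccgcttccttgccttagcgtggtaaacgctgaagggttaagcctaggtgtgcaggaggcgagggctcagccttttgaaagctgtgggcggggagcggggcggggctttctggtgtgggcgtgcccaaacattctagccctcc
Mcm3: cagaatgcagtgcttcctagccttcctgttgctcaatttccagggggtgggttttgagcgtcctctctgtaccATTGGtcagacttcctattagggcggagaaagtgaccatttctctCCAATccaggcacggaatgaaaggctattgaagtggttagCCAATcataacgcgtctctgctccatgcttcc
Mcm5: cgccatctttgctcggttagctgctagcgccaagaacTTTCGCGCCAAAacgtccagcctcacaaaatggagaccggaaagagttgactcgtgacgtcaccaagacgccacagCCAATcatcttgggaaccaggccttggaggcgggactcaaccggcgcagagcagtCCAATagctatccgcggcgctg
Mcm6: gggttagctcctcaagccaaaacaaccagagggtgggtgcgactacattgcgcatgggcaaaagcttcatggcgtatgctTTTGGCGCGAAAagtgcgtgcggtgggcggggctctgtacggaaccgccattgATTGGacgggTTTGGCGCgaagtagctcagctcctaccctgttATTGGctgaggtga
E2f2: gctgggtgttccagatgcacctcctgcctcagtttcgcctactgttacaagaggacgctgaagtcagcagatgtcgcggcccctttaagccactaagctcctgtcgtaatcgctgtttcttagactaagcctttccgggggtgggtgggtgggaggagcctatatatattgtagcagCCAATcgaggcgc
Uhrf1: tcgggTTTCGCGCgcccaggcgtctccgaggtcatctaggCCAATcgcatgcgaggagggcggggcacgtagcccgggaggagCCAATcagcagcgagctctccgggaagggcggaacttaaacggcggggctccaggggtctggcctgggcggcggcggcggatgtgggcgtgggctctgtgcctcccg

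The E2F words searched were TTTCCCGC, TTTCGCGC, TTTGGCGC and TTTGCCGC on either strand, and the other motif was CCAAT on either strand. RefSeq promoters, which run from 250 bases before to 50 bases after a start, were matched for 24 of the 28 members and came to 28 promoters, since some genes have more than 1 start. Mcm4, Gins2, Ccne2 and Dscc1 were not matched. An E2F word lay in 10 of the 28 member promoters (35.7%), against 744 of 32851 promoters of all genes (2.26%) and 494 of 13336 promoters of genes tested (3.70%). The members were chosen partly as genes of the E2F program, so their higher share is not a separate result. In Mcm5 the words TTTCGCGC and TTTGGCGC overlap on opposite strands, with their first bases at 153 and 149 bases before the start. Mcm6 has such an overlapping pair at 110 and 106 bases before the start and a further word at 47. Mcm2 has no E2F word in this window, and those of Mcm3 and E2f2 lie after the start, outside the bases printed. Of the other members, Mcm7, Cdc6, Cdt1, Pola1, Uhrf1 and Hells had such a word. CCAAT boxes lay in 18 of 28 member promoters (64.3%) and in 37.4% of all promoters, and Mcm3 has 3 in its window. Mcm7, which had E2F words at 1 of its 2 starts, was matched and is not printed. Fen1 was matched too, had neither motif at its 2 starts and is not printed. Where a printed gene had 2 starts, the one with an E2F word is shown. Bases just after the printed start were found in an annotated transcript of the gene for Mcm2, Mcm3 and Uhrf1. For Mcm5, Mcm6 and E2f2 they were not found. The E2f2 start that is not printed had such a match and no E2F word. These matches describe letters and show no binding.

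Depth was 42496076, 49128378 and 48067741 counts in DEK replicates 1, 2 and 3, and 48867857, 38060873 and 34875736 counts in vehicle replicates 1, 2 and 3. Progenitor markers were present, with Kit at 154 to 272 CPM in the DEK libraries and 158 to 305 CPM in the vehicle libraries (CPM, a gene's count over the library size after TMM scaling). In both groups Kit was lowest in replicate 3. Of the 10 progenitor markers, 8 were below the mean of replicates 1 and 2 in replicate 3 of both groups, and 2 were above it. Dek itself was counted at 17.4, 17.1 and 16.5 CPM with DEK and at 17.5, 16.8 and 21.8 CPM with vehicle, which does not check the genotype, since the labels do not say which part of the gene is removed. Both libraries numbered 3 stood apart. Neutrophil markers, of which 13 of 14 had a row and none was at 0, summed to 66227 CPM in DEK replicate 3 and 69058 CPM in vehicle replicate 3, against 6566 to 8533 CPM in the other DEK libraries and 6790 to 7308 CPM in the other vehicle libraries. Vehicle replicate 1 stood apart in the precursor of ribosomal RNA, Rn45s, which took 4.89% of its counts, against 0.159 to 0.331% in the DEK libraries and 0.273 to 0.297% in the other vehicle libraries. In bulk RNA, fewer dividing cells and less RNA per dividing cell cannot be told apart.

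Across the groups as a whole, none of the 28 genes passed the test. Without pairing, edgeR's quasi-likelihood test called 0 of 13803 genes (0%; adjusted p under 0.05), and 0 of the 28. At an unadjusted p under 0.05 it had 0 members, against 2.61% of all genes tested. With the replicate number as a block, 177 genes were called (1.28%; 0.869% higher and 0.413% lower with DEK), and again 0 of the 28. Without pair 1, 2 or 3 that count over all genes was 181, 0 and 641, still with 0 members. DESeq2 and limma-voom also called 0 members. The smallest adjusted p of a member was 0.280 within pairs, for E2f2 (edgeR). The median log2 fold change of the members was 0.08 without pairing and 0.08 within pairs, against 0.00 for all genes tested in both fits. Single libraries moved the unpaired median, which was -0.0038 without DEK replicate 2 and 0.15 without vehicle replicate 3. Without both libraries numbered 3 it was 0.21, with 0 members called. The members' log2 fold changes ran from -0.15 to 0.33 without pairing, with 20 above 0 and 8 below.

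Each 95% interval is for 1 gene's mean fold change over the libraries, not for the change in a single pair. The bounds within pairs also rest on taking equal numbers as pairs, which the labels do not state. Within pairs, the 95% intervals of the 28 fold changes had their lowest bound at 0.755-fold, for Dscc1, and their highest at 1.498-fold, for Gins2. Without pairing, the outermost bounds on the log2 scale were -0.60 for Ccne2 and 0.99 for E2f2.

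The pairs of libraries with equal numbers did not move alike. In pair 1, 24 of 28 members were higher in the DEK library, with a median log2 difference of 0.12, while 46.6% of all genes tested were above 0. In pair 2, 24 of 28 were higher, with a median of 0.22, while 51.1% of all genes were above 0. In pair 3, 5 of 28 were higher and 23 lower, with a median of -0.19, while 49.5% of all genes were above 0. The median of all genes was -0.02, 0.01 and 0.00 in pairs 1, 2 and 3. Each pair has 1 library per side, so the contrast between pair 3 and the others was not tested. With median-of-ratios scaling the counts were the same, and with unscaled total counts they were 25, 23 and 2, where the median of all genes in pair 3 was itself -0.10.

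**Figure D1:**
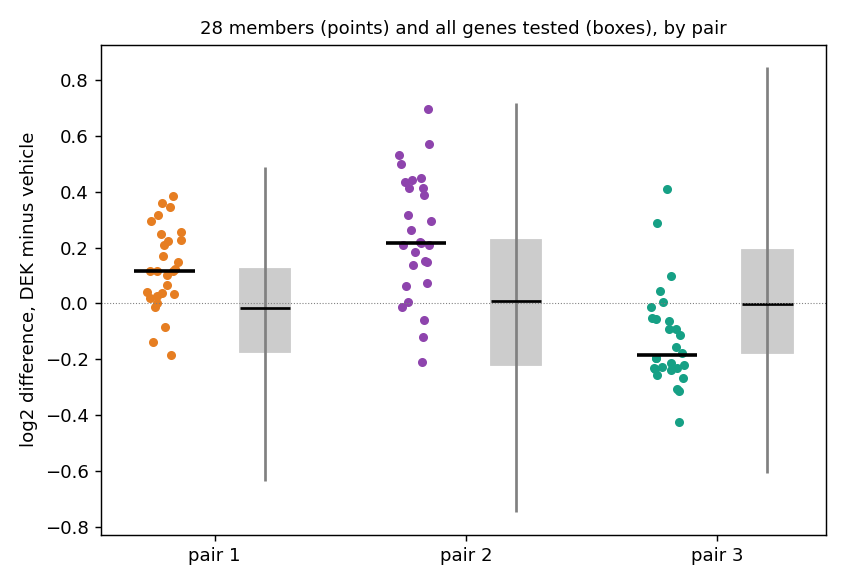
Log2 difference, DEK minus vehicle, in pairs 1, 2 and 3. Points are the 28 members with their median as a black line; boxes run from percentile 25 to 75 of the 13803 genes tested, whiskers from percentile 5 to 95, and the line is the median. Member medians are 0.12, 0.22 and -0.19.

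Only Gins2, Fen1, E2f1 and E2f2 were higher with DEK in all 3 pairs, or 14.3% of the members, against 16.3% of all genes tested. With unscaled total counts these were Gins2 and E2f2. No member was lower in all 3 pairs, as 17.9% of all genes were. Groups that did not overlap were found for 1 member, Fen1, which was higher with DEK, as were 3.78% of all genes tested, while 3.41% were lower without overlap and 7.19% did not overlap in either direction. Gins2, Fen1 and E2f2 had an unadjusted p under 0.05 within pairs, all higher with DEK, against 6.03% of all genes tested in that direction and 5.42% in the other.

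The members' summed level showed the same split. It was 2590 CPM, 3010 CPM and 2637 CPM in DEK replicates 1, 2 and 3, against 2400.1, 2489 and 2808 CPM in vehicle replicates 1, 2 and 3. As ratios of DEK to vehicle these were 1.079, 1.21 and 0.939 in pairs 1, 2 and 3. The vehicle library numbered 3 and the DEK library numbered 2 were the highest in their groups. Vehicle replicate 3 held the highest level of 13 members and DEK replicate 2 that of 12, while vehicle replicates 1 and 2 held none. Vehicle replicate 1, the library with the most Rn45s, had the lowest sum, and the part of Rn45s in that was not tested.

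Genes of G2 and mitosis, 24 of 24 with a row and none at 0, split the same way over the pairs. Their sum was 2531, 2688 and 2652 CPM in DEK replicates 1, 2 and 3, against 1906, 2190 and 3366 CPM in vehicle replicates 1, 2 and 3. All 24 were higher with DEK in pair 1, 23 in pair 2 and 0 in pair 3. Vehicle replicate 3 had the highest G2 and mitosis sum, and the 3 DEK libraries lay close together. Genes of neutrophil precursors (Elane, Mpo, Prtn3, Ctsg, Ms4a3, Cebpe), 6 of 6 with a row and none at 0, followed a like split, with 4, 5 and 0 of 6 higher with DEK and median log2 differences of 0.03, 0.34 and -0.21 in pairs 1, 2 and 3. Their sum was 9595, 10270.3 and 7158 CPM in DEK replicates 1, 2 and 3, against 9400.1, 8668 and 8891 CPM in vehicle replicates 1, 2 and 3. The sum of the mature neutrophil markers in pair 3 was 0.959 of vehicle. Single markers went both ways there, with 9 of 13 higher with DEK and 4 lower, against 49.5% of all genes higher. Their median log2 difference in pair 3 was 0.11. The part of these genes and of neutrophil content in the members' pattern was not tested.

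**Figure D2:**
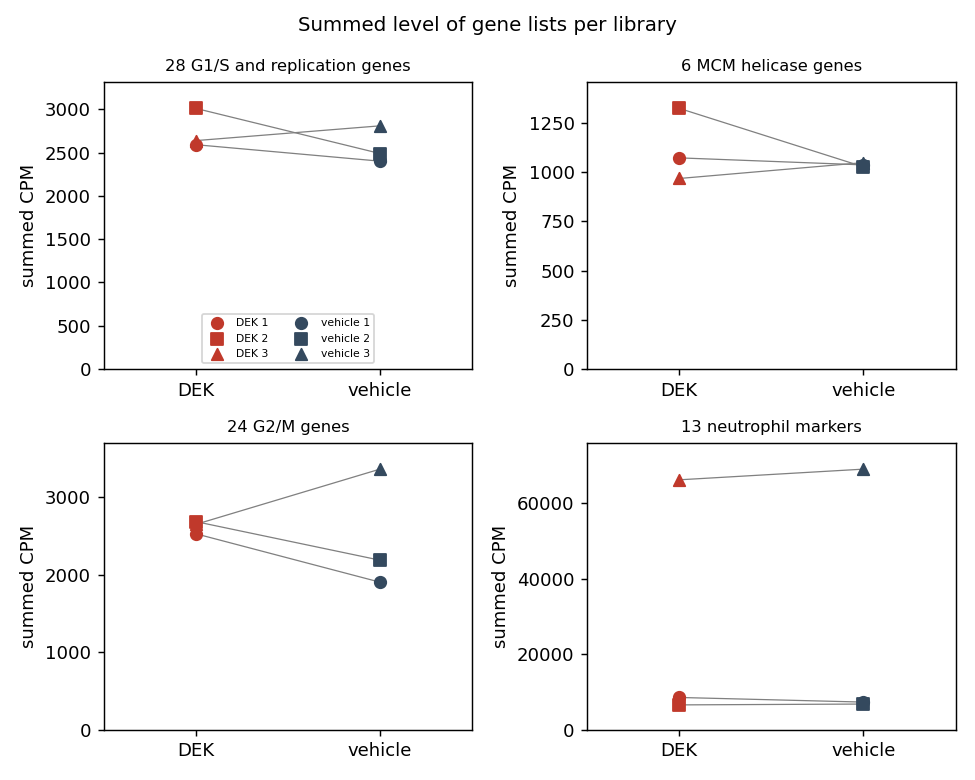
Summed CPM of the 28 members, the 6 MCM genes, 24 G2/M genes and 13 neutrophil markers in each library, with DEK left of vehicle and grey lines joining equal replicate numbers. In pairs 1 and 2 the line for the members falls toward vehicle, and in pair 3 it climbs.

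MCM helicase genes encode the 6 subunits of the ring that unwinds DNA ahead of the fork. All 6 had log2 fold changes above 0 in both fits, with a median of 0.11 without pairing, and 0 of 6 passed the test. Mcm2 had 132, 172 and 122.8 CPM in DEK replicates 1, 2 and 3, against 121, 119 and 128 CPM in vehicle replicates 1, 2 and 3. Its log2 fold change was 0.19 ± 0.12 (SE) within pairs (adjusted p = 0.576, edgeR), and DEK replicate 2 stood alone above the other 5 libraries, which overlapped. Mcm5 had 187, 258 and 169.8 CPM with DEK, against 179, 183 and 176 CPM with vehicle. Mcm3 had 228, 299 and 204 CPM with DEK, against 229.9, 225 and 204 CPM with vehicle. For both genes DEK replicate 2 was again the highest of the 6 libraries, and the remaining values of the groups overlapped. The log2 differences of all 6 MCM genes in pair 2 lay between 0.21 and 0.53.

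Mcm6 was at 257, 285 and 211 CPM with DEK, against 253, 246 and 242 CPM with vehicle, so that DEK held both the highest and the lowest value. Mcm7 was at 122.5, 153 and 125 CPM with DEK, against 119, 125 and 139.7 CPM with vehicle. Mcm4 was at 148, 157 and 135 CPM with DEK, against 135, 131 and 159 CPM with vehicle. Mcm4 was the MCM gene for which vehicle replicate 3 held the top value. The vehicle libraries agreed closely in the sum of the 6 genes, at 1038, 1028 and 1049 CPM, while the DEK libraries spread over 1073, 1325 and 968 CPM. Single genes moved in opposite directions within that vehicle sum. Among the vehicle libraries, replicate 3 was the highest for Mcm2, Mcm4 and Mcm7 and the lowest for Mcm3, Mcm5 and Mcm6. Leaving out DEK replicate 2 turned the log2 fold changes of Mcm3, Mcm4, Mcm5, Mcm6 and Mcm7 below 0 and took the median of the 28 members to -0.0038.

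**Figure D3:**
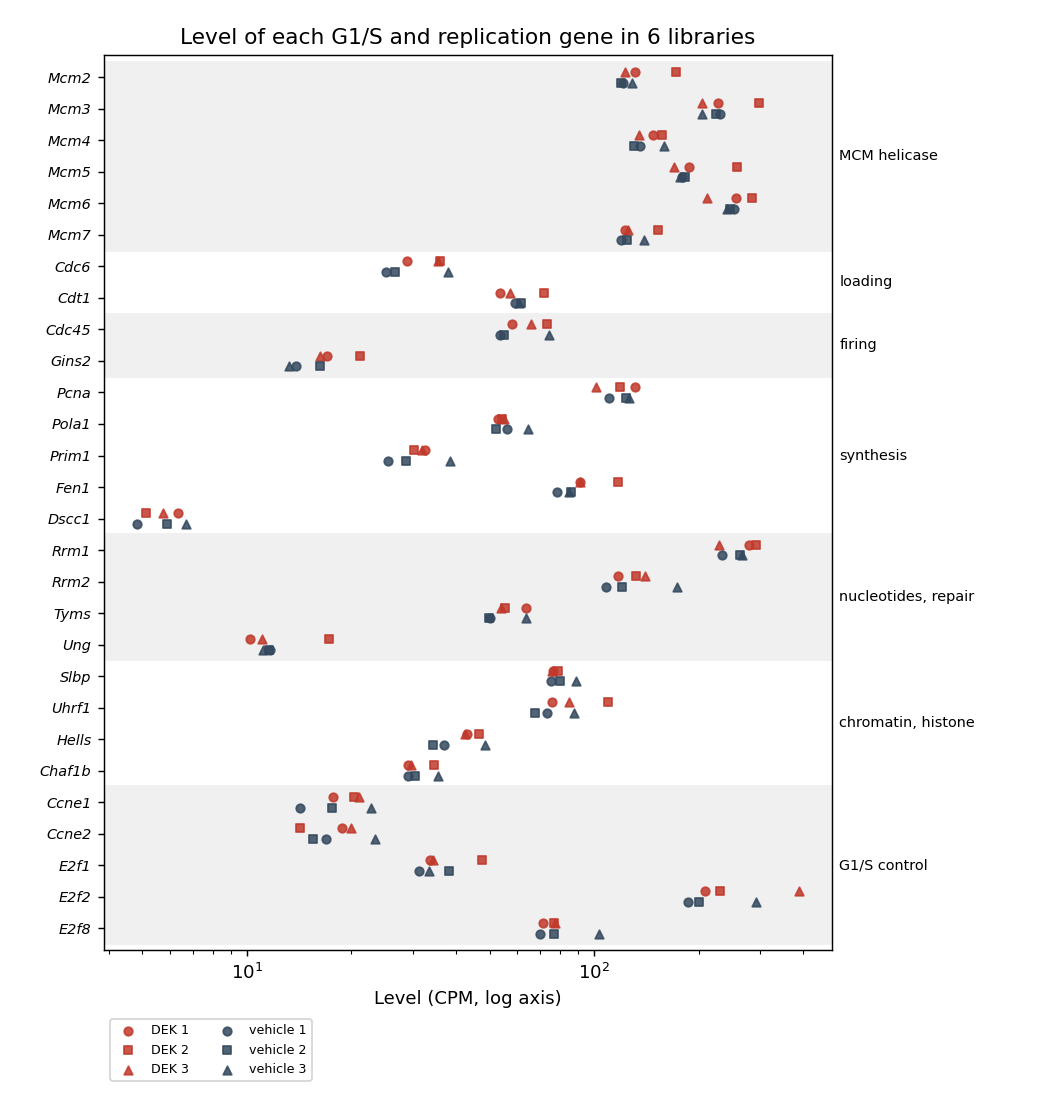
Level of each member in CPM on a log axis, one row per gene, by role; red symbols are DEK and dark symbols vehicle libraries, with the symbol's shape giving the replicate number. DEK and vehicle overlap in every row except that of Fen1.

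The loading factors Cdc6, an ATPase that helps to place the helicase, and Cdt1, its partner that is destroyed once S phase starts, did not pass the test. Cdc6 had 29.0, 36.0 and 35.6 CPM in DEK replicates 1, 2 and 3, against 25.1, 26.6 and 37.9 CPM in vehicle replicates 1, 2 and 3. Its log2 differences were 0.21, 0.44 and -0.09 in pairs 1, 2 and 3, so pair 3 went against the others. Cdt1 had 53.6, 71.6 and 57.1 CPM with DEK, against 59.0, 61.4 and 60.9 CPM with vehicle, and its DEK mean of 60.8 ± 9.50 CPM hardly differed from the vehicle mean of 60.4 ± 1.27 CPM (SD, n = 3 each).

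Gins2, a subunit of the GINS complex, had the highest fold change of the members, though it did not pass. It was at 16.99, 21.2 and 16.2 CPM in DEK replicates 1, 2 and 3, against 13.8, 16.2 and 13.2 CPM in vehicle replicates 1, 2 and 3. The groups touched at their edges, with DEK replicate 3 level with vehicle replicate 2. Within pairs the log2 fold change was 0.32 ± 0.12 (SE; unadjusted p = 0.0177, adjusted p = 0.283, edgeR), and the pair differences were 0.29, 0.39 and 0.29. The value is uncertain because 11.4% of its exon length is shared with Gse1 and reads there were not counted. Cdc45, which joins the helicase when an origin fires, was at 58.2, 73.4 and 65.7 CPM with DEK, against 53.6, 55.1 and 74.4 CPM with vehicle. Its pair differences were 0.12, 0.41 and -0.18, so it followed the MCM genes.

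At the fork, Fen1, the nuclease that trims the flaps of lagging-strand fragments, was the only member with groups that did not overlap. It had 91.1, 117 and 91.0 CPM in DEK replicates 1, 2 and 3, against 78.0, 85.9 and 84.96 CPM in vehicle replicates 1, 2 and 3. The lowest DEK library was thus above the highest vehicle library. Its log2 fold change was 0.26 ± 0.10 (SE) within pairs (unadjusted p = 0.0230, adjusted p = 0.317, edgeR) and 0.27 ± 0.14 without pairing. Over all alternatives run, its adjusted p lay between 0.0937 and 1.00.

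Pcna, the sliding clamp that holds the polymerase on DNA, went in different directions. It had 131, 119 and 101 CPM with DEK, against 110.1, 124 and 126 CPM with vehicle, with pair differences of 0.25, -0.06 and -0.31. Pola1, the catalytic subunit of polymerase alpha, and Prim1, the primase that lays the first RNA primer, spread more with vehicle than with DEK. Pola1 was at 53.0, 54.4 and 55.0 CPM with DEK, against 56.2, 52.2 and 64.7 CPM with vehicle. Prim1 was at 32.7, 30.3 and 31.98 CPM with DEK, against 25.5, 28.8 and 38.4 CPM with vehicle. Dscc1, part of a loader of the clamp, was the lowest member, at 6.32, 5.10 and 5.74 CPM with DEK, against 4.83, 5.90 and 6.67 CPM with vehicle, and it had the widest interval within pairs.

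Genes of nucleotide supply and uracil removal did not pass either. All 4 of this role were below 0 in pair 3, Ung by a log2 difference of only -0.013. The same was true of 23 of the 28 members, among them all 4 chromatin and histone genes. Rrm1, the large subunit of ribonucleotide reductase, had 279, 292 and 229.7 CPM in DEK replicates 1, 2 and 3, against 234, 264 and 268 CPM in vehicle replicates 1, 2 and 3. Rrm2, its S-phase subunit, had 117, 132 and 140.3 CPM with DEK, against 108, 120.1 and 174 CPM with vehicle. The top value was in DEK replicate 2 for Rrm1 and in vehicle replicate 3 for Rrm2, and the groups overlapped for both. Tyms, which makes thymidylate, had 63.6, 55.2 and 54.1 CPM with DEK, against 50.05, 49.7 and 63.5 CPM with vehicle. Ung, which removes uracil from DNA, was high in 1 library alone, with 10.2, 17.3 and 11.1 CPM with DEK, against 11.6, 11.6 and 11.2 CPM with vehicle.

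Among chromatin and histone genes, Uhrf1, which brings DNA methylation to newly made strands, had the widest difference of any member in a pair. It had 75.5, 109 and 84.5 CPM in DEK replicates 1, 2 and 3, against 73.3, 67.5 and 87.6 CPM in vehicle replicates 1, 2 and 3. Its log2 differences were 0.04, 0.70 and -0.05 in pairs 1, 2 and 3, so pair 2 alone set it apart. Its fitted value within pairs was 0.23 ± 0.15 (log2, SE) (adjusted p = 0.621, edgeR). Without pair 2 it was 0.0063, and without pair 3 it was 0.37 (adjusted p = 0.0560, edgeR). Hells, a chromatin remodeller needed for DNA methylation, had 43.2, 46.6 and 42.5 CPM with DEK, against 36.9, 34.3 and 48.7 CPM with vehicle. Slbp, which binds histone mRNA, had 76.3, 78.9 and 75.7 CPM with DEK, against 74.97, 79.6 and 88.6 CPM with vehicle. Chaf1b, a subunit of the chromatin assembly factor CAF-1 that puts histones on new DNA, had 29.2, 34.7 and 29.7 CPM with DEK, against 29.2, 30.5 and 35.4 CPM with vehicle. For Hells, Slbp and Chaf1b vehicle replicate 3 was the highest library.

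**Figure D4:**
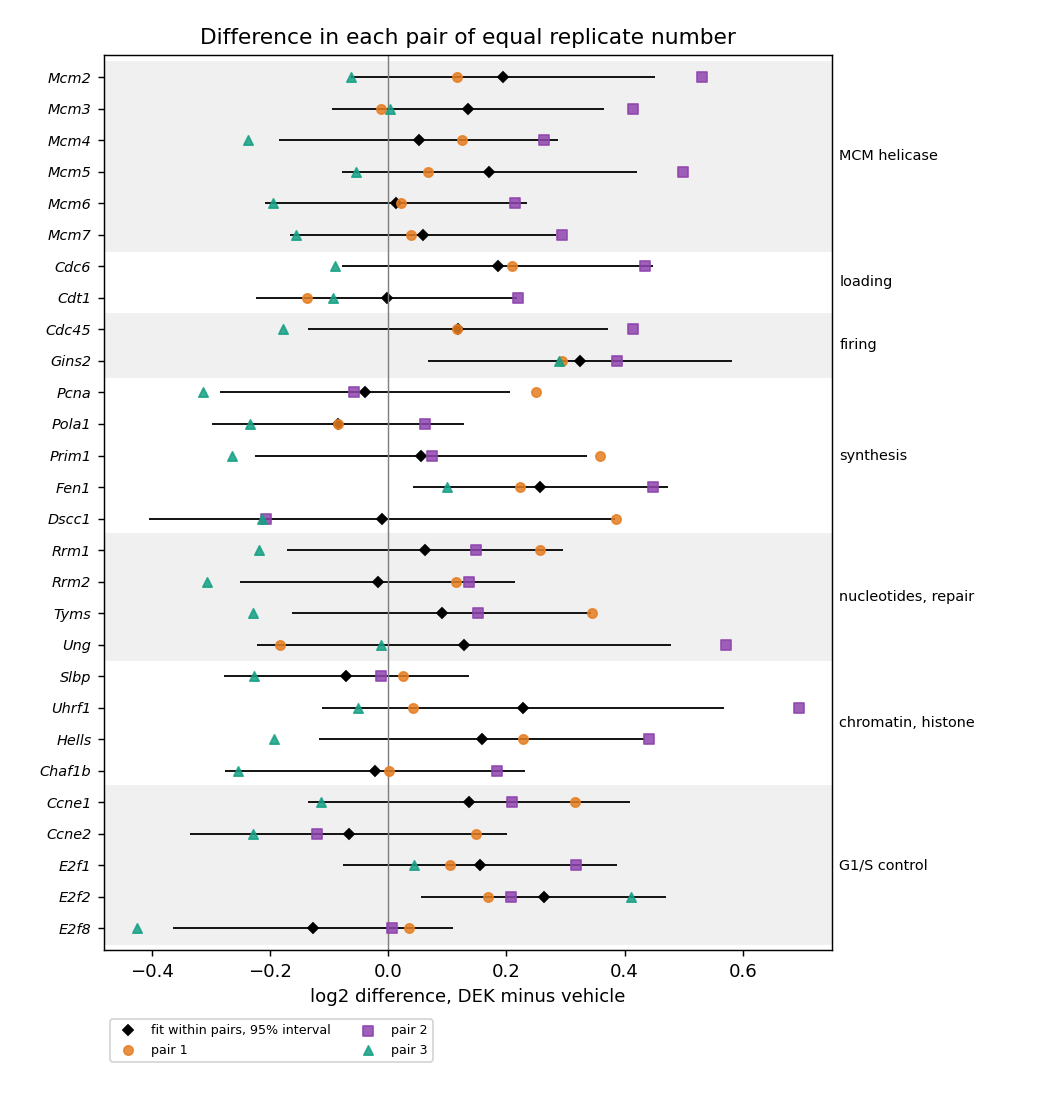
Log2 difference, DEK minus vehicle, for each member by role. Coloured symbols give pairs 1, 2 and 3, and black diamonds with lines give the fit within pairs and its 95% interval. Pair 3 lies left of 0 for 23 of 28 members and is highest of the pairs for E2f2.

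In G1/S control, E2f2, an activator E2F, was the member with its top value in DEK replicate 3. It had 209, 231 and 389 CPM in DEK replicates 1, 2 and 3, against 186, 200.3 and 293 CPM in vehicle replicates 1, 2 and 3. Replicate 3 was the highest library in both groups, and each DEK library was above the vehicle library of its number. The pair differences were 0.17, 0.21 and 0.41 on the log2 scale, and the fold change within pairs was 1.20 (95% interval 1.04 to 1.38; unadjusted p = 0.0170, adjusted p = 0.280, edgeR). The unpaired fit put it at 0.29 ± 0.29 (log2, SE).

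E2f2 stood above the mean of replicates 1 and 2 in replicate 3 by 0.82 on the log2 scale with DEK and by 0.60 with vehicle, where the median member was at -0.11 with DEK and 0.25 with vehicle. With vehicle, Rrm2 was as far up, at 0.61, and Cdc6, Ccne1 and Ccne2 were near, at 0.55, 0.53 and 0.53. With DEK the next member was Ccne2, at 0.29. Replicate 3 was the highest library of both groups for Pola1, Rrm2, Ccne1, Ccne2 and E2f8 as well. In mice E2f2 is known for its part in the maturation of red cell precursors. Erythroid markers were also high in the libraries numbered 3: their sum was 931, 701 and 3100.2 CPM in DEK replicates 1, 2 and 3, against 924, 835 and 1981 CPM in vehicle replicates 1, 2 and 3. Most of the sum was Alas2, an enzyme of haem synthesis, with 2249.8 CPM in DEK replicate 3 and 1357 CPM in vehicle replicate 3. Between DEK and vehicle the markers did not follow E2f2, with 1, 2 and 5 of the 7 tested higher with DEK in pairs 1, 2 and 3. All 10 markers of the list had a row. Hba-a1, Hbb-bs and Hbb-bt were at 0 counts in all 6 libraries, but 99.5%, 98.6% and 100% of their exon lengths are shared with other genes and reads there were not counted, so these zeros do not measure haemoglobin RNA. The markers' part in the level of E2f2 was not tested.

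E2f1, another activator E2F, had 33.7, 47.6 and 34.4 CPM with DEK, against 31.4, 38.2 and 33.4 CPM with vehicle, and the DEK library was above its pair in all 3, by 0.10, 0.32 and 0.04. E2f8, an E2F that represses the same targets, had the lowest log2 fold change of the members, at -0.13 ± 0.11 (SE) within pairs (adjusted p = 0.709, edgeR). It had 71.5, 76.8 and 77.1 CPM with DEK, against 69.8, 76.5 and 104 CPM with vehicle. Vehicle replicate 3 alone lay apart, and the pair differences were 0.03, 0.01 and -0.43. The cyclin E genes Ccne1 and Ccne2, whose proteins drive the kinase Cdk2 at the start of S phase, also peaked in vehicle replicate 3. Ccne1 had 17.7, 20.3 and 21.0 CPM with DEK, against 14.2, 17.6 and 22.7 CPM with vehicle. Ccne2 had 18.8, 14.2 and 19.99 CPM with DEK, against 16.95, 15.5 and 23.5 CPM with vehicle, and is uncertain because 53.9% of its exon length is shared with Ints8.

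Levels between members were compared per length, as TPM. Pcna, at 192 ± 47.0 TPM with DEK and 196 ± 16.6 TPM with vehicle (SD, n = 3 each), Mcm6, at 179 ± 46.8 TPM with DEK and 176 ± 19.99 TPM with vehicle, and Mcm3, at 175 ± 52.0 TPM with DEK and 158 ± 24.3 TPM with vehicle, led the order. With DEK these means differed by less than their SDs. Dscc1 closed it, at 8.93 ± 1.59 TPM with DEK and 9.08 ± 0.965 TPM with vehicle. Among the E2F genes, E2f2 stood at 109 ± 22.3 TPM with DEK and 92.0 ± 13.9 TPM with vehicle, above E2f8 at 41.5 ± 4.81 TPM with DEK and 46.0 ± 5.26 TPM with vehicle, and above E2f1 at 25.6 ± 7.30 TPM with DEK and 22.9 ± 3.71 TPM with vehicle. Ccne1 had lower means, at 20.4 ± 2.07 TPM with DEK and 18.9 ± 2.87 TPM with vehicle. With DEK its distance from E2f1 was within the SD of E2f1. Ccne2 is not ranked, because reads in the 53.9% of its exon length shared with Ints8 were not counted.

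A wider list of 126 genes of the same processes had 125 rows, and 124 were tested. None was called, with or without pairing, and at an unadjusted p under 0.05 within pairs 7 of 124 were higher and 0 lower with DEK, against 6.03% and 5.42% of all genes tested, so the count of higher genes was near the background. Their median log2 fold change was 0.00 without pairing and 0.01 within pairs, below the members' 0.08. Pooled over the roles they split as the members did, with 80, 91 and 29 of 124 higher with DEK in pairs 1, 2 and 3. Among all genes tested, 46.6%, 51.1% and 49.5% were higher. The split was less clear in G1/S control, with 16, 14 and 11 of 28 higher, and in nucleotide supply, with 6, 11 and 6 of 16.

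The wider gene with the smallest p was Cdkn1a, which encodes the kinase inhibitor p21 that holds cells in G1. It had 89.1, 113 and 148 CPM in DEK replicates 1, 2 and 3, against 83.7, 85.1 and 85.3 CPM in vehicle replicates 1, 2 and 3. All 3 DEK libraries were above all 3 vehicle libraries, which also holds for 3.78% of all genes tested. Of the 124 wider genes, 2 were higher and 3 lower with DEK without overlap. Cdkn1a was picked by its p, so its lack of overlap is not separate support. Its fitted value within pairs was 0.43 ± 0.13 (log2, SE) (adjusted p = 0.186, edgeR), with pair differences of 0.09, 0.41 and 0.79. It passed in 1 alternative alone, within pairs with unscaled total counts (adjusted p = 0.0424, edgeR).

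In the roles of loading, firing, synthesis, nucleotide supply and chromatin, the wider gene with the smallest p within pairs did not pass. Orc1, a subunit of the origin recognition complex, had a log2 fold change of 0.30 ± 0.19 (SE; adjusted p = 0.607, edgeR). Gins1, a partner of Gins2, was at 0.17 ± 0.14 (adjusted p = 0.683, edgeR) and Pold2, a subunit of polymerase delta, at 0.27 ± 0.12 (adjusted p = 0.398, edgeR), the value for Pold2 being uncertain because 4.29% of its exon length is shared with Aebp1. Nme1, a nucleoside diphosphate kinase, was at 0.23 ± 0.10 (adjusted p = 0.394, edgeR), with 93.5, 121 and 92.8 CPM with DEK, against 88.2, 89.2 and 82.5 CPM with vehicle. Npat, an activator of histone genes, was below 0, at -0.13 ± 0.10 (adjusted p = 0.690, edgeR).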

How the data were processed

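RNA of 3 DEK-treated and 3 vehicle-treated libraries was used, grouped by their titles. Values were deposited as raw read counts. Per the file headers, featureCounts 1.6.1 assigned reads to exons of mm10 genes with no strand option. Reads in exons of more than 1 gene, on either strand, were left out. Per the submitters' processing notes, Trim Galore, STAR, HTSeq and edgeR were used.

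Counts were filtered with filterByExpr and tested in R 4.3.3 with edgeR 4.0.16 (TMM, robust quasi-likelihood test, two-sided, Benjamini-Hochberg over all 13803 genes tested, threshold 0.05) without a block. DESeq2 1.42.0, limma-voom (limma 3.58.1), other scalings, no filter and left-out libraries were alternatives. Depth was 34875736 to 49128378 counts. CPM differences between libraries are on the log2 scale with a prior count of 2. Promoters came from RefSeq and were not filtered here for overlap with annotated exons. The fits were also run on simulated counts with known changes, and their power to call small changes is not reported here.

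The replicate number as a block was also fitted. Deviations from group means correlated by 0.55, 0.56 and 0.80 for equal numbers 1, 2 and 3, past the minimum of 0.1, so the numbers were taken as pairs. Unequal numbers reached 0.52, so the pairing of 1 and 2 rests on little. The labels do not say what a number stands for.

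Members and lists were chosen with earlier results of these data known. Of the wider genes, those past the threshold in either fit were named, or else the 1 with the smallest p within pairs per role. The gene this gave for 1 role is not reported here. Reads carry no molecular identifiers.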

Additional observations from a re-analysis of the deposited data

How the results depend on the processing

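None of the 28 members was called in any alternative. Genes called overall numbered 177 with the replicate block, 176 with that block and median-of-ratios scaling, 368 with that block and unscaled total counts, 58 with DESeq2, 168 without both libraries numbered 3, and 0 to 1 when 1 library was left out. The block without pair 1, 2 or 3 gave 181, 0 and 641. The block changed no call of a member or of the wider list at TMM scaling. The wider list had 1 call, with the block and unscaled total counts. The members' median lay between -0.0038 and 0.21 over the alternatives run.

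Signs of single members turned often. That of Cdt1 turned with limma-voom (-0.0023), the replicate block (-0.0032), the block with median-of-ratios scaling (-0.0015), the block with unscaled totals (-0.024, with Mcm6 at -0.0068) and unscaled totals alone (-0.0076). Dscc1 turned with limma-voom (0.0015). Without both libraries numbered 3, log2 fold changes were Pcna at 0.096, Dscc1 at 0.092, Rrm2 at 0.13, Slbp at 0.0060, Chaf1b at 0.097, Ccne2 at 0.027 and E2f8 at 0.020. With 1 library left out, they ran from -0.023 to 0.26 for Mcm3, -0.0064 to 0.14 for Mcm4, -0.0066 to 0.31 for Mcm5, -0.078 to 0.13 for Mcm6, -0.046 to 0.13 for Mcm7, -0.13 to 0.088 for Cdt1, -0.12 to 0.055 for Pcna, -0.16 to 0.00067 for Pola1, -0.086 to 0.23 for Prim1, -0.13 to 0.096 for Dscc1, -0.0033 to 0.16 for Rrm1, -0.18 to 0.19 for Rrm2, -0.11 to 0.30 for Ung, -0.11 to 0.065 for Chaf1b, -0.034 to 0.31 for Ccne1, -0.19 to 0.13 for Ccne2, -0.012 to 0.26 for E2f1, -0.045 to 0.52 for E2f2 and -0.26 to 0.041 for E2f8. With 1 pair left out of the block, they ran from -0.044 to 0.19 for Mcm4, -0.076 to 0.12 for Mcm6, -0.048 to 0.17 for Mcm7, -0.10 to 0.063 for Cdt1, -0.019 to 0.27 for Cdc45, -0.19 to 0.096 for Pcna, -0.097 to 0.22 for Prim1, -0.21 to 0.099 for Dscc1, -0.037 to 0.20 for Rrm1, -0.086 to 0.13 for Rrm2, -0.040 to 0.25 for Tyms, -0.088 to 0.28 for Ung, -0.12 to 0.0066 for Slbp, -0.12 to 0.093 for Chaf1b, -0.18 to 0.016 for Ccne2 and -0.21 to 0.021 for E2f8, where Dscc1 was at 0.091 without pair 3. The signs of Mcm2, Cdc6, Gins2, Fen1, Uhrf1 and Hells turned in no alternative run, but their sizes moved: with 1 library or pair left out they ran from 0.038 to 0.32, 0.058 to 0.38, 0.20 to 0.42, 0.13 to 0.34, 0.0063 to 0.37 and 0.029 to 0.34 in that order. Their smallest adjusted p over all alternatives was 0.107, 0.226, 0.273, 0.0937, 0.0560 and 0.154 in that order (edgeR). The cause was not tested. The number of libraries, 3 per group, limits the precision.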
